A study of Mus musculus with 31 samples.

Results

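The genes described here are the chemokine and interleukin ligands, the secreted signals of the immune system, as they were measured on microarrays of mouse induced pluripotent stem cells (iPSCs) and of embryoid bodies made from them. They were all genes whose symbol on the array is Ccl, Cxcl or Il followed by a number, with at most a closing letter from a to f, and that had a probe set (the array's group of probes for a transcript) naming no other gene. Where a gene had several such probe sets, the one with the highest mean over all arrays was used. The rule gave 59 of the 18194 genes measured, of which 18 were Ccl, 13 Cxcl and 28 Il genes. The rule itself reads gene symbols, and levels only to pick a gene's probe set. A further 7 symbols of these families were present only on probe sets shared between genes and were left out. The 31 arrays fell into 4 groups. Nos3-/- embryoid bodies at day 11 gave 6 arrays, control embryoid bodies at day 11 gave 9, Nos3-/- iPSCs at day 0 gave 6 and control iPSCs at day 0 gave 10. Nos3-/- cells came from B6.129P2-Nos3tm1unc/J mice, which lack endothelial nitric oxide synthase, and control cells from CD1 wild-type mice, so the deletion and the strain cannot be told apart in any difference between genotypes. All cells were tail-tip fibroblasts of adult male mice reprogrammed with Sendai virus. At day 0 the iPSCs were growing on a layer of inactivated mouse embryonic fibroblasts, and by day 11 they had been aggregated in Aggrewell plates and left to differentiate without directing factors. Nothing in the labels ties the arrays of a group to separate cultures or clones. The p-values therefore weigh differences against array-to-array spread alone, and that spread may be technical.

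Chemokines are small secreted proteins that draw cells along a gradient by binding G protein-coupled receptors, and they are classed as CC or CXC by the spacing of their first cysteines. CC chemokines such as Ccl2 draw mainly monocytes and lymphocytes, whereas a subset of CXC chemokines such as Cxcl1 draws neutrophils through Cxcr2, and another subset, Cxcl9 to Cxcl11, is induced by interferon and binds Cxcr3 on activated T cells. Interleukins are a looser class named by discovery, whose receptors mostly signal through Jak kinases and Stat factors or, for the interleukin-1 family and the interleukin-17 family, through NF-kappaB, with exceptions such as interleukin-34 and interleukin-16. Fibroblasts, endothelial cells and macrophages all make inflammatory chemokines and interleukin-6 when NF-kappaB is active. Embryonic stem cells are known for weak inflammatory responses. Cultures that hold feeder fibroblasts can carry cytokine transcripts from more than a single kind of cell, and the cell of origin was not measured here. In RNA from whole cultures, fewer cells of a type and less RNA per cell cannot be told apart.

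Levels are log2 values on the scale the authors deposited, where a difference of 1 is a doubling. Over the 59 genes, 30 had a mean level at or above 6.03, the lower tertile of the means of all genes, and 29 lay below it. Only 6 had a mean above 7.42, the median of all genes. A mean below the tertile does not put a gene near the floor on every array. Among the 29, Ccl12, Ccl3 and Il7 reached 8.83, 7.85 and 8.10 on their highest arrays. The targeted gene, Nos3, did not check the labels. At day 11 the lowest, median and highest levels on its single probe set were 6.70, 6.91 and 7.06 on the arrays labelled Nos3-/-, against 6.76, 7.05 and 7.43 in control, and at day 0 they were 6.73, 7.06 and 7.13 on the arrays labelled Nos3-/-, against 6.36, 6.62 and 7.05 in control. The difference was -0.17 at day 11 (adjusted p = 0.386) and 0.33 at day 0 (adjusted p = 0.0295), and the files do not say whether the probe set lies in the deleted part. The pluripotency gene Pou5f1 had medians of 12.30 and 11.78 in Nos3-/- and control embryoid bodies and of 12.93 and 12.55 in Nos3-/- and control iPSCs. Replicate 3 of the Nos3-/- arrays correlated least with its own group at both days, with a mean correlation of 0.961 at day 11 and 0.971 at day 0. No pair of arrays was identical, which does not show whether the samples were distinct cultures or repeats of a single culture.

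The question first asked of the ligands was how their levels differed between embryoid bodies at day 11 and iPSCs at day 0 within each genotype. Interleukin-6 and most of the inflammatory chemokines, among them Ccl2, Ccl7 and Cxcl2, were lower at day 11 in Nos3-/- and in control cells. In Nos3-/- cells 25 of the 59 ligands fell and none rose (limma, adjusted p under 0.05 over all genes). That was 42.4% of the ligands, where 18.1% of all genes fell, 13.0% rose and 31.1% changed in either direction. In control cells 27 of 59 fell, 45.8% of the ligands, where 18.2% of all genes fell, 16.0% rose and 34.2% changed in either direction, and Ccl17 alone rose. The median log2 change over the 59 ligands was -0.34 in Nos3-/- and -0.30 in control cells, and the median over all genes was -0.06 in Nos3-/- and -0.03 in control cells. The fall was at least 2-fold for 14 ligands in Nos3-/- cells, where 2.80% of all genes fell by that much, and for 16 in control cells, where 3.46% did. All day 11 arrays lay below all day 0 arrays for 14 ligands in Nos3-/- cells, against 4.58% of all genes, and for 12 in control cells, against 3.63%. The same 20 ligands fell in both genotypes. In the plot of all 35 ligands that passed a test somewhere, the arrays of day 11 and day 0 separate most clearly for Il6, Ccl2, Ccl7 and Cxcl2.

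**Figure D1:**
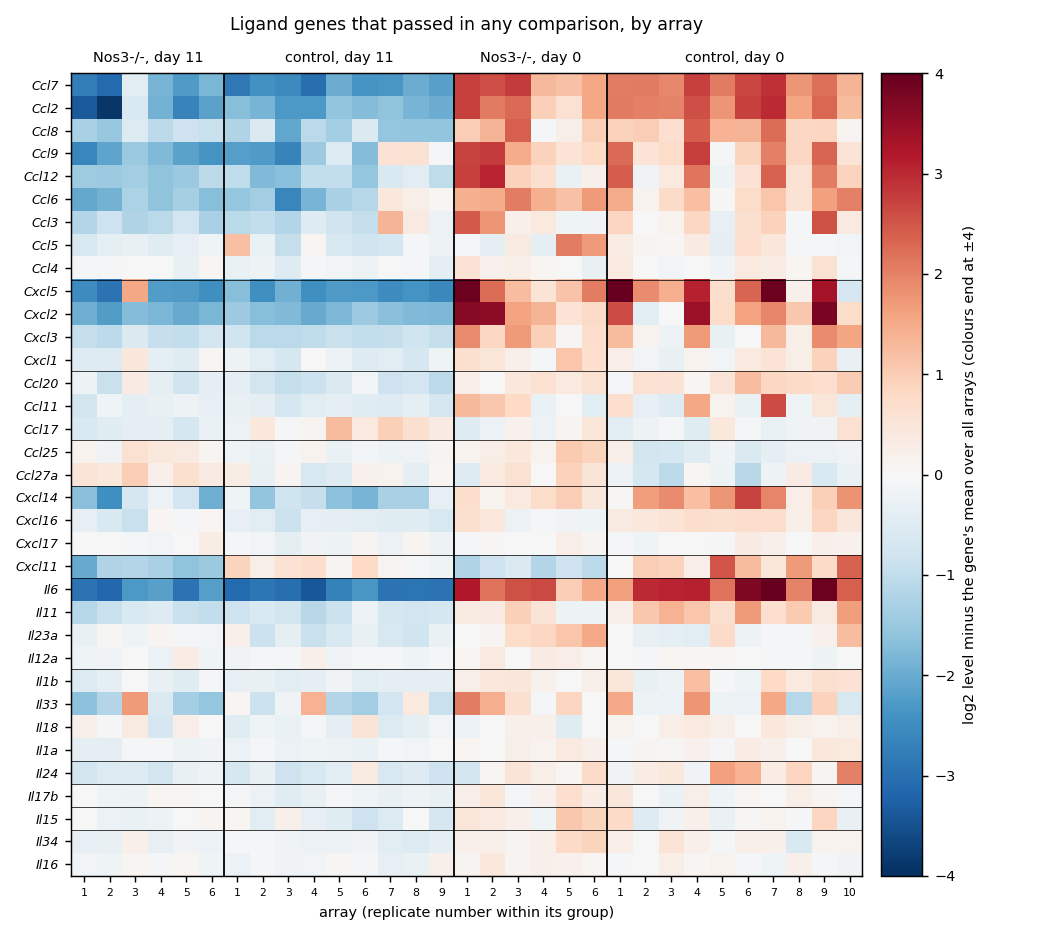
Level of each of the 35 ligands that passed in at least 1 comparison (rows) on each of the 31 arrays (columns), as the log2 level minus the gene's mean over all arrays, with colours ending at -4 and 4. Columns run from Nos3-/- day 11 through control day 11 and Nos3-/- day 0 to control day 0, and Il6, Ccl2 and Ccl7 are low on every day 11 array relative to every day 0 array.

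Among the 9 monocyte-attracting and inflammatory CC chemokines, 8 fell in each genotype, with a median log2 change of -2.62 in Nos3-/- and -2.22 in control cells. Ccl2, the main ligand of the monocyte receptor Ccr2, had lowest, median and highest levels of 5.07, 6.54 and 8.34 in Nos3-/- embryoid bodies, against 9.57, 10.76 and 11.67 in Nos3-/- iPSCs, a log2 change of -4.13 (SE 0.38, adjusted p = 1.10e-08). Control embryoid bodies had 6.64, 7.10 and 7.37, against 10.20, 11.00 and 11.93 in control iPSCs, a change of -4.01 (SE 0.31, adjusted p = 2.14e-11). The days did not overlap in either genotype, and Nos3-/- embryoid bodies spread more widely than control ones. Ccl7, another Ccr2 ligand, had levels of 5.14, 6.18 and 7.83 in Nos3-/- embryoid bodies, against 9.42, 10.31 and 11.06 in Nos3-/- iPSCs, a change of -4.07 (SE 0.34, adjusted p = 1.68e-09). For Ccl7 control embryoid bodies had 5.23, 5.89 and 6.28, against 9.62, 10.33 and 11.17 in control iPSCs, a change of -4.59 (SE 0.27, adjusted p = 1.57e-13). Again no array of day 11 reached an array of day 0.

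Ccl9 and Ccl6, rodent chemokines that bind Ccr1, fell in both genotypes but spread more widely among the control embryoid bodies. Ccl9 had levels of 4.46, 4.95 and 5.60 in Nos3-/- embryoid bodies, against 7.62, 8.28 and 9.88 in Nos3-/- iPSCs, a change of -3.62 (SE 0.55, adjusted p = 1.79e-05). Control embryoid bodies had Ccl9 levels of 4.41, 5.62 and 7.68, against 7.02, 7.93 and 9.85 in control iPSCs, a change of -2.37 (SE 0.44, adjusted p = 8.52e-05). The groups were apart in Nos3-/- cells and overlapped in control cells, where embryoid body replicates 7, 8 and 9 held the highest Ccl9 levels of their group, 7.66, 7.68 and 7.00, and the highest Ccl6 levels, 7.36, 7.15 and 7.01. The Ccl6 change was -3.18 (SE 0.39, adjusted p = 8.85e-07) in Nos3-/- and -1.98 (SE 0.31, adjusted p = 8.55e-06) in control cells. Second probe sets for Ccl6 and Ccl9 were lower at day 11 in both genotypes too. Ccl12, a mouse Ccr2 ligand, fell by 2.62 on the log2 scale in Nos3-/- and by 2.22 in control cells, and Ccl8, of the same gene cluster, by 2.00 in Nos3-/- and by 2.46 in control cells. Ccl3, a ligand of Ccr1, had levels of 4.00, 4.16 and 4.53 in Nos3-/- embryoid bodies, against 5.12, 5.59 and 7.74 in Nos3-/- iPSCs, a change of -1.81 (SE 0.45, adjusted p = 0.00296). In control cells Ccl3 changed by -1.04 (SE 0.36, adjusted p = 0.0232), and the adjusted p was 0.0507 without control day 0 replicate 9, which had the highest level, 7.85. The remaining pair, the monocyte and T cell attractants Ccl4 and Ccl5, passed in 1 genotype each. Ccl4 changed by -0.35 in control cells (adjusted p = 0.00695) and by -0.19 in Nos3-/- cells (adjusted p = 0.271). Ccl5 changed by -0.94 in Nos3-/- cells (adjusted p = 0.0335) and by -0.39 in control cells (adjusted p = 0.276). Its call was lost without Nos3-/- day 0 replicate 5 (adjusted p = 0.131) or 6 (adjusted p = 0.111), or without Nos3-/- day 11 replicate 1 (adjusted p = 0.0660), 2 (adjusted p = 0.0557) or 4 (adjusted p = 0.0517).

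Of the 5 neutrophil-attracting CXC chemokines, 4 fell in each genotype and Cxcl15 did not pass. Cxcl2, a ligand of the neutrophil receptor Cxcr2, had levels of 3.82, 4.18 and 4.32 in Nos3-/- embryoid bodies, against 6.61, 7.54 and 9.70 in Nos3-/- iPSCs, a change of -3.84 (SE 0.56, adjusted p = 1.04e-05). Control embryoid bodies had Cxcl2 levels of 4.05, 4.30 and 4.61, against 5.65, 7.40 and 9.87 in control iPSCs, a change of -3.27 (SE 0.44, adjusted p = 1.14e-06). Embryoid bodies were uniformly low, and iPSC arrays were spread over several doublings. Cxcl5, which binds the same receptor, had levels of 3.35, 3.94 and 7.85 in Nos3-/- embryoid bodies, against 6.85, 7.94 and 10.24 in Nos3-/- iPSCs, a change of -3.67 (SE 0.71, adjusted p = 0.000328). The highest value, in Nos3-/- day 11 replicate 3, made the days overlap, and without that array the change was -4.34 (adjusted p = 1.02e-05). In control embryoid bodies Cxcl5 had levels of 3.72, 3.91 and 4.59, against 5.63, 8.41 and 10.41 in control iPSCs, a change of -4.32 (SE 0.57, adjusted p = 6.62e-07). Cxcl3, close to background at day 11, fell by 1.89 on the log2 scale in Nos3-/- cells and by 1.72 in control cells. The size for Cxcl1, whose product is the mouse KC chemokine, depended on the probe set. The set used, whose probes can cross-hybridise, changed by -0.73 in Nos3-/- and -0.53 in control cells, and the other sets by -2.43 and -3.67 in Nos3-/- and by -2.67 and -4.13 in control cells, all lower at day 11.

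**Figure D2:**
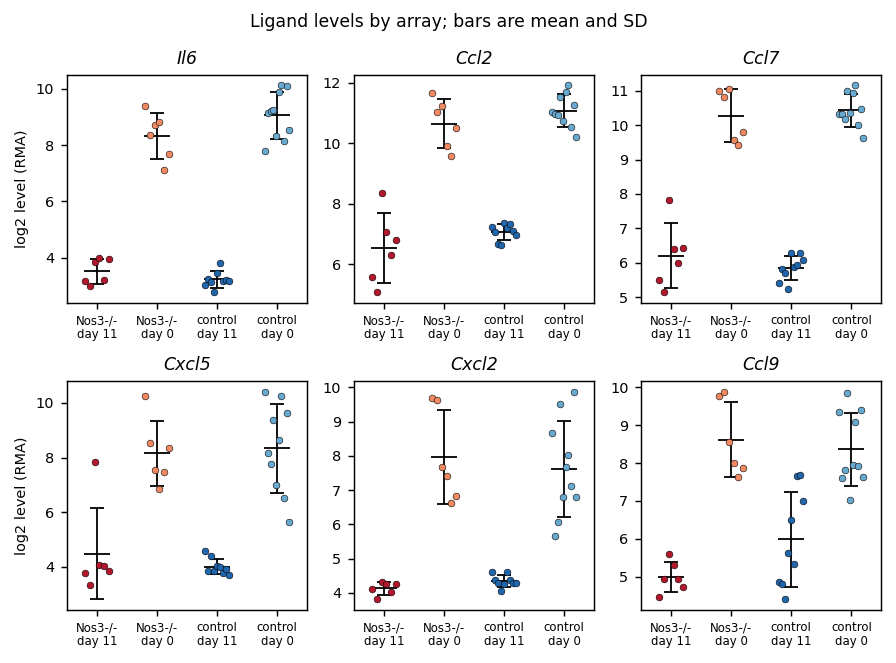
Log2 level (vertical axis) of Il6, Ccl2, Ccl7, Cxcl5, Cxcl2 and Ccl9 on each array (points), with the mean and SD of each group. Day 11 stands left of day 0 within each genotype, and the single high day 11 point of Cxcl5, at 7.85, is Nos3-/- day 11 replicate 3.

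Interleukin-6, made by fibroblasts, macrophages and endothelial cells and acting through the gp130 receptor chain, had the largest fall of the 59 ligands in each genotype. Il6 had levels of 3.01, 3.53 and 3.99 in Nos3-/- embryoid bodies, against 7.13, 8.53 and 9.37 in Nos3-/- iPSCs, a change of -4.80 (SE 0.35, adjusted p = 1.22e-10). In control embryoid bodies it had levels of 2.78, 3.20 and 3.83, against 7.80, 9.17 and 10.13 in control iPSCs, a change of -5.81 (SE 0.28, adjusted p = 3.24e-15). No array of day 11 came within several doublings of an array of day 0. The day 11 levels of Il6, like those of Cxcl2, Cxcl3 and most of Cxcl5, lay near the floor of the array, so the sizes of these falls depend on that floor.

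Stretches of DNA just before the start of 6 of these genes are printed here to show letters that inflammatory factors are known to bind. Il6, Cxcl2, Cxcl3 and Ccl9 are the 4 ligands at least 2-fold lower at day 11 in both genotypes that hold the NF-kappaB consensus, Cxcl1 is the neighbour of Cxcl2 and Cxcl3, and Cxcl10 is an interferon-induced ligand. The RefSeq promoter table (mouse build GRCm38.p6) held windows for 41 of the 59 ligands, and not for Ccl2, Ccl7, Cxcl5 or Cxcl11. Capitals mark letters that match the NF-kappaB consensus, the AP-1 motif TGANTCA or the interferon response core (GAAA, any 2 bases, GAAA), searched on both strands, in the 250 bases before the start. The stretches are Il6 at chr5:30012954-30013113, Cxcl1 at chr5:90891085-90891244, Cxcl2 at chr5:90903739-90903898 and Cxcl3 at chr5:90785941-90786100, all on the plus strand, and Ccl9 at chr11:83578637-83578796 and Cxcl10 at chr5:92348890-92349139 on the minus strand, each read 5′ to 3′ and ending at the base before the start.
Il6: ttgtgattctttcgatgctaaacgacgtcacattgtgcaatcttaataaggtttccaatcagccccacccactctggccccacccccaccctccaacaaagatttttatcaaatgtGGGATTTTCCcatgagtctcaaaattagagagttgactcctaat
Cxcl1: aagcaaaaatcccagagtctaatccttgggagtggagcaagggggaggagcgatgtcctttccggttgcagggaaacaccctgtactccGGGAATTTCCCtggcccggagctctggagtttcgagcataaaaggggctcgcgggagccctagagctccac
Cxcl2: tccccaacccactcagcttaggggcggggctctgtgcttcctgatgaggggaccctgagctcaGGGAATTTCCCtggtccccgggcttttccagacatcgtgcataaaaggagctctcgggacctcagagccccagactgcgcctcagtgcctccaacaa
Cxcl3: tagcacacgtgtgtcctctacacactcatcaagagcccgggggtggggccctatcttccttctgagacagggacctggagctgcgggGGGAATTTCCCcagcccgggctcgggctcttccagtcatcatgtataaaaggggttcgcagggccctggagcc
Ccl9: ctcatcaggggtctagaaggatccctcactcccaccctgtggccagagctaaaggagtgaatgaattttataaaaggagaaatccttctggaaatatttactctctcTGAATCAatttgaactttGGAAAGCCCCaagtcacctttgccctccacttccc
Cxcl10: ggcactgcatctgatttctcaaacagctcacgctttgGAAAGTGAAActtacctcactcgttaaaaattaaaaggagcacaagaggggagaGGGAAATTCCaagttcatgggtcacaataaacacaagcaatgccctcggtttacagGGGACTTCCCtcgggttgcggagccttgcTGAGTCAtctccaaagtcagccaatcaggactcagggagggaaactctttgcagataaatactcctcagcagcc
In Il6 the NF-kappaB match lies 44 to 35 bases before the start. Cxcl1, Cxcl2 and Cxcl3 carry the same run of 11 letters, GGGAATTTCCC, which holds overlapping matches on both strands and starts 71, 97 and 73 bases before their starts. In Ccl9 the first run in capitals is the AP-1 match and the other is the NF-kappaB match. In Cxcl10 the runs are, in order, an interferon core, 2 NF-kappaB matches and an AP-1 match. Among 32841 windows, 3.9% held the NF-kappaB consensus, 6.75% the AP-1 motif and 2.98% the interferon core. Counted by gene over any of its windows, 8 of the 41 ligands (19.5%) held the NF-kappaB consensus, against 4.46% of 27018 genes, 9 (22.0%) held AP-1, against 7.82%, and 3 (7.32%) held the interferon core, against 3.46%. The TATA box (TATAAA), searched on the gene's strand alone and not marked in capitals, was held by 14 (34.1%), against 8.93%. A higher share among the ligands was thus not particular to the motifs of inflammatory factors. Of the 10 ligands with a window that were at least 2-fold lower at day 11 in both genotypes, 4 held the NF-kappaB consensus, 3 AP-1, 1 the interferon core and 4 the TATA box. The AP-1 match of Il6 lies before the stretch printed. A match describes these letters and does not show that a factor binds there.

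The other interleukins moved less than Il6. Among the interleukins related to Il6, Il11 and Il12, 4 of 6 fell in Nos3-/- and 3 of 6 in control cells. Il11, which shares gp130 with interleukin-6, had levels of 5.19, 5.43 and 5.80 in Nos3-/- embryoid bodies, against 6.12, 6.67 and 7.28 in Nos3-/- iPSCs, a change of -1.13 (SE 0.22, adjusted p = 0.000281). In control embryoid bodies Il11 had levels of 5.23, 5.59 and 6.08, against 6.53, 7.38 and 8.02 in control iPSCs, a change of -1.71 (SE 0.17, adjusted p = 5.70e-09), and the days did not overlap in either genotype. Il23a, the p19 subunit of interleukin-23, fell by 0.80 on the log2 scale in Nos3-/- cells (adjusted p = 0.0140) and by 0.58 in control cells (adjusted p = 0.0216), with overlap. Il12a, the p35 subunit of interleukin-12, fell by 0.27 in Nos3-/- cells (adjusted p = 0.0108), with a change of -0.04 in control cells (adjusted p = 0.630). In the interleukin-1 family, whose members act through NF-kappaB, 3 of 4 fell in each genotype. Il1b fell by 0.55 in Nos3-/- cells and by 0.69 in control cells, and Il1a by 0.38 in Nos3-/- and by 0.30 in control cells. Both genes had a mean level below the lower tertile. Il33, an alarmin released from damaged cells, had levels of 5.29, 5.67 and 8.63 in Nos3-/- embryoid bodies, against 6.86, 7.70 and 8.97 in Nos3-/- iPSCs, a change of -1.59 (SE 0.55, adjusted p = 0.0283). Its call was lost without any of 6 arrays, Nos3-/- day 0 replicates 1 and 2 and Nos3-/- day 11 replicates 1, 2, 5 and 6, with adjusted p from 0.0570 to 0.0708, and the change in control cells was -0.68 (adjusted p = 0.240). Il18, the fourth member, passed in control cells alone, at -0.41 (adjusted p = 0.0105), against 0.06 in Nos3-/- cells.

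Of the remaining interleukins, Il34, the alternative ligand of the macrophage receptor Csf1r, fell by 0.57 in Nos3-/- cells (adjusted p = 0.00361) and by 0.35 in control cells (adjusted p = 0.0176). Il17b fell by 0.34 in Nos3-/- cells (adjusted p = 0.0186, and 0.0698 without Nos3-/- day 0 replicate 5) and by 0.29 in control cells (adjusted p = 0.00956). Il24, of the interleukin-10 family, fell by 1.18 in control cells (adjusted p = 0.000262) and changed by -0.67 in Nos3-/- cells (adjusted p = 0.0886). Il15, which sustains natural killer cells, fell by 0.57 in Nos3-/- cells (adjusted p = 0.0429) and Il16, a ligand of CD4, by 0.23 (adjusted p = 0.0404). The Il15 call was lost without Nos3-/- day 0 replicate 1, 2, 5 or 6 or Nos3-/- day 11 replicate 1, 2, 3, 4 or 5 (adjusted p from 0.0532 to 0.132). The Il16 call was lost without Nos3-/- day 0 replicate 2, 4 or 5 or Nos3-/- day 11 replicate 1, 2, 4 or 6 (adjusted p from 0.0534 to 0.119). With quantile normalization of the deposited values the calls between days of Il17b, Il23a, Il34 and Cxcl17 in control cells and of Il1b, Il12a, Il15, Il16 and Ccl5 in Nos3-/- cells were lost.

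None of the 3 homeostatic epithelial CC chemokines passed in either genotype. Of the 5 homeostatic and other CXC chemokines, 1 fell in Nos3-/- and 3 in control cells. Cxcl14, a chemokine of epithelia and fibroblasts, had levels of 4.09, 5.32 and 6.31 in Nos3-/- embryoid bodies, against 6.69, 7.13 and 7.53 in Nos3-/- iPSCs, a change of -1.86 (SE 0.38, adjusted p = 0.000538). In control embryoid bodies Cxcl14 had levels of 4.69, 5.26 and 6.37, against 6.59, 8.26 and 9.25 in control iPSCs, a change of -2.52 (SE 0.30, adjusted p = 1.55e-07). The days did not overlap, and a second probe set gave -0.48 in Nos3-/- and -1.64 in control cells. Cxcl16, a membrane-bound chemokine that binds Cxcr6, fell by 1.04 in control cells without overlap (adjusted p = 1.17e-07) and changed by -0.38 in Nos3-/- cells (adjusted p = 0.0602). Cxcl17, a mucosal chemokine, changed by -0.18 in control cells (adjusted p = 0.0485), a call lost on leaving out any of 19 of the 31 arrays, with adjusted p from 0.0509 to 0.110. Cxcl12, the stem cell niche chemokine that binds Cxcr4, had means of 8.13 and 8.10 in Nos3-/- embryoid bodies and iPSCs and of 8.48 and 8.37 in control embryoid bodies and iPSCs, and did not pass. On its second probe set the means were 8.27 and 7.11 in Nos3-/- and 9.16 and 7.11 in control embryoid bodies and iPSCs. The second set was higher by 1.16 in Nos3-/- and by 2.05 in control embryoid bodies than in iPSCs, and it was lower by 0.89 in Nos3-/- than in control embryoid bodies, without a test of its own, so whether Cxcl12 differs depends on the probe set. Ccl20, which binds Ccr6, fell by 0.77 in Nos3-/- cells (adjusted p = 0.00371) and by 1.32 in control cells (adjusted p = 1.16e-07). Ccl11, the eosinophil chemokine eotaxin, fell by 0.84 in control cells (adjusted p = 0.0261, and 0.0569 without control day 0 replicate 4) and changed by -0.76 in Nos3-/- cells (adjusted p = 0.119). Ccl17, a ligand of the T cell receptor Ccr4, had levels of 6.20, 6.82 and 7.69 in control embryoid bodies, against 5.96, 6.28 and 7.04 in control iPSCs, and was the only ligand that rose on the probe sets used, by 0.50 (SE 0.16, adjusted p = 0.0178). In Nos3-/- cells the Ccl17 change was -0.43 (SE 0.20, adjusted p = 0.111).

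**Figure D3:**
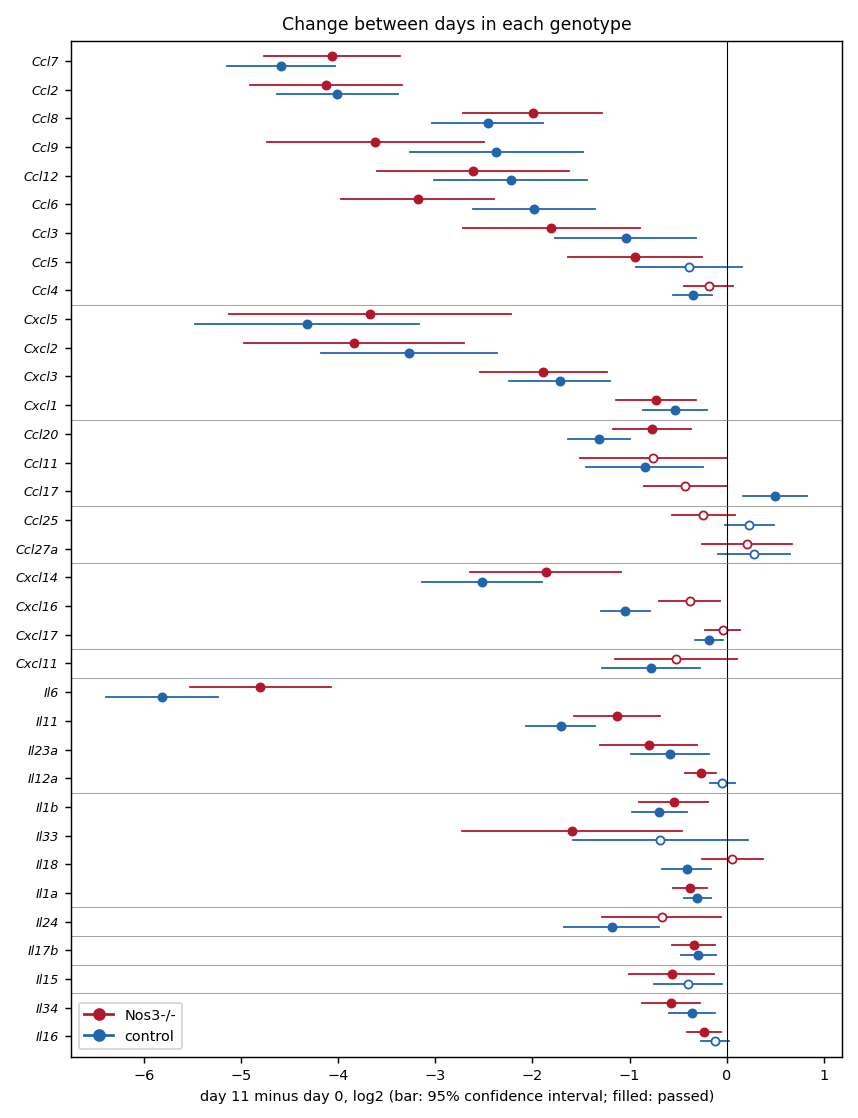
Log2 level at day 11 minus day 0 (horizontal axis) with its 95% confidence interval for each ligand that passed in at least 1 comparison, with Nos3-/- drawn above control for each gene and filled points for changes that passed. Il6 lies farthest to the left in both genotypes, at -4.80 in Nos3-/- and -5.81 in control cells, and Ccl17 in control cells is the only filled point right of 0.

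Markers of some other cells moved with these changes. Where 18.1% of all genes fell in Nos3-/- and 18.2% in control cells, of 18 macrophage markers 16 fell in Nos3-/- and 18 in control cells, and the list's mean level per array was 5.44 to 5.82 in Nos3-/- embryoid bodies, against 7.08 to 9.51 in Nos3-/- iPSCs, and 5.54 to 6.75 in control embryoid bodies, against 7.15 to 9.50 in control iPSCs. Lyz2, the macrophage lysozyme, fell by 6.55 in Nos3-/- and by 6.12 in control cells. Of 23 fibroblast markers 16 fell in Nos3-/- cells, and 13 fell and 4 rose in control cells. The fibroblast list's mean per array was 8.14 to 9.03 in Nos3-/- embryoid bodies, against 9.40 to 10.41 in Nos3-/- iPSCs, and 8.69 to 10.13 in control embryoid bodies, against 9.75 to 11.06 in control iPSCs. Of 17 neutrophil and lymphoid markers 3 fell in each genotype, a share close to that of all genes. Of 15 pluripotency markers 2 fell in Nos3-/- cells, and 5 fell and 1 rose in control cells. Of 12 keratinocyte and epithelial markers 1 rose in Nos3-/- cells, and 5 fell and 1 rose in control cells. In other lists more markers rose, where 13.0% of all genes did in Nos3-/- and 16.0% in control cells. Of 13 visceral endoderm markers 4 rose in Nos3-/- and 11 in control cells, and of 12 endothelial markers 4 rose in Nos3-/- cells, and 8 rose and 1 fell in control cells. Among the 16 iPSC arrays, the 6 with the highest macrophage mean (8.91 to 9.51, against at most 7.98 on the other 10) were Nos3-/- replicates 1 and 2 and control replicates 1, 4, 7 and 9. These 6 tended to differ in other lists too, with overlap. Their means over NF-kappaB pathway and target genes were 8.10 to 8.44, against 7.96 to 8.36 on the other 10. Their keratinocyte and epithelial means were 8.95 to 10.29, against 9.63 to 10.69. The same 6 arrays held the 6 highest levels of Ccl12, 7.85 to 8.83, against 5.53 to 6.73 on the other 10, and the 6 highest levels of Ccl3, Ccl9, Cxcl2 and Il33. For Cxcl5, 5 of the 6 highest arrays were among them, for Il6, Ccl2, Ccl7 and Cxcl3 4 were, and for Ccl6 and Ccl8 3 were. These counts were made for the ligands named alone, and not every ligand went this way. Cxcl10 ran from 5.46 to 7.59 on the same 6 arrays, against 7.34 to 8.21 on the other 10. Ccl20 ran from 6.97 to 7.88 on the 6, against 7.44 to 8.31. The share of all genes whose highest arrays overlap those of the macrophage list, and the overlap that chance alone gives, were not counted. The 3 control embryoid body arrays high in Ccl6 and Ccl9, replicates 7, 8 and 9, also had the highest macrophage means of their group, 6.75, 6.40 and 6.25. They did not differ in this list alone. Their fibroblast means, 10.13, 9.97 and 9.89, were also among the highest of that group, where replicate 5 had 9.93. The part of these cell types' transcripts in the ligand changes was not tested.

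**Figure D4:**
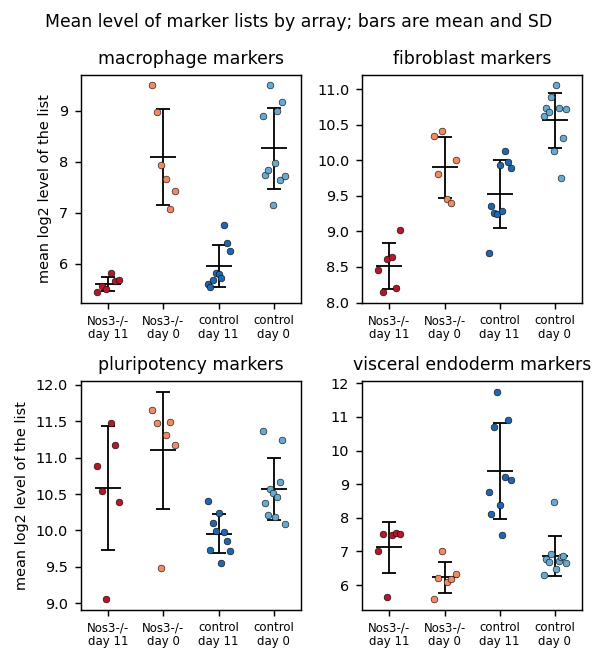
Mean log2 level of the macrophage, fibroblast, pluripotency and visceral endoderm marker lists on each array (points), by group. The macrophage means of iPSC arrays run from 7.08 to 9.51 in Nos3-/- and from 7.15 to 9.50 in control, above all embryoid body arrays, which end at 5.82 in Nos3-/- and 6.75 in control.

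The next comparison was between Nos3-/- and control cells on the same day. Few ligands differed, and the clearest was Cxcl11, an interferon-induced chemokine that draws activated T cells through Cxcr3, lower in Nos3-/- cells on both days. At day 11, 3 of the 59 ligands differed (5.08%), where 9.70% of all genes did, with Cxcl11 and Ccl17 lower (5.29% of all genes were) and Ccl27a higher (4.41% were) in Nos3-/- cells. At day 0, 7 of the 59 differed (11.9%), where 16.6% of all genes did, with Ccl25, Ccl27a, Il12a and Il23a higher (9.17% of all genes were) and Cxcl11, Cxcl16 and Il11 lower (7.47% were) in Nos3-/- cells. These shares are below those of all genes, and the median difference over the ligands was 0.04 at day 11 and 0.02 at day 0, against 0.00 and 0.01 over all genes. Cxcl11 had levels of 5.14, 5.76 and 5.97 in Nos3-/- embryoid bodies, against 6.98, 7.38 and 8.05 in control ones, a difference of -1.82 (SE 0.28, adjusted p = 4.09e-05) or 3.52-fold. At day 0 its levels were 5.96, 6.22 and 6.58 in Nos3-/- iPSCs, against 7.13, 8.12 and 9.68 in control iPSCs, a difference of -2.07 (SE 0.28, adjusted p = 4.90e-06) or 4.20-fold. The genotypes did not overlap on either day, which was so, with the lower level in Nos3-/- cells, for 1.44% of all genes at day 11 and 0.753% at day 0. A second Cxcl11 probe set, near the floor of the array at a mean of 3.53, differed by -0.14 at day 11 and -0.13 at day 0. The mean of both sets for Cxcl11 differed by -0.98 at day 11 (adjusted p = 5.86e-05) and by -1.10 at day 0 (adjusted p = 9.01e-06). Cxcl11 fell between the days by 0.78 in control cells (adjusted p = 0.0149), and its change in Nos3-/- cells was -0.52 (adjusted p = 0.204).

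The other interferon-induced ligands of Cxcr3 did not pass. Cxcl10 had levels of 5.13, 6.04 and 8.05 in Nos3-/- embryoid bodies, against 5.82, 6.84 and 8.97 in control ones, a difference of -1.04 (95% interval -2.01 to -0.07, adjusted p = 0.193), and the genotypes overlapped. At day 0 the Cxcl10 difference was -0.17 (adjusted p = 0.847), and Cxcl9 stayed between 3.98 and 4.64 on all arrays. Of 27 other interferon response genes, 5 were lower and 1 was higher in Nos3-/- embryoid bodies, where 5.29% of all genes were lower and 4.41% higher, among them Ifit1, an inhibitor of viral RNA translation, at -1.88, and Tap1, a peptide transporter, at 0.66. At day 0 1 of the 27 passed, where 16.6% of all genes did: Irgm1, an interferon-induced GTPase, at -0.88.

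Ccl17 had levels of 5.73, 6.00 and 6.18 in Nos3-/- embryoid bodies, against 6.20, 6.82 and 7.69 in control ones, a difference of -0.88 (SE 0.19, adjusted p = 0.00173), and the groups did not overlap, by a narrow margin. At day 0 the Ccl17 difference was 0.04 (adjusted p = 0.904). Ccl25, the Ccr9 ligand of thymus and small intestine, had levels of 7.56, 7.77 and 8.47 in Nos3-/- iPSCs, against 6.68, 7.12 and 7.67 in control iPSCs, a difference of 0.82 (SE 0.14, adjusted p = 0.000156), with a slight overlap. At day 11 the Ccl25 difference was 0.35 (95% interval 0.06 to 0.64, adjusted p = 0.129). Ccl27a, a Ccr10 ligand of skin, had levels of 7.41, 7.68 and 8.20 in Nos3-/- embryoid bodies, against 6.57, 7.28 and 7.50 in control ones, a difference of 0.64 (SE 0.21, adjusted p = 0.0453). At day 0 it had 6.68, 7.65 and 8.11 in Nos3-/- iPSCs, against 6.08, 6.96 and 7.52 in control iPSCs, a difference of 0.72 (SE 0.20, adjusted p = 0.0162). The groups overlapped on both days, and the single Ccl27a probe set is of a kind whose probes can match other transcripts, its close copy Ccl27b being on shared probe sets only. The day 11 call was lost on leaving out any of 14 of the 31 arrays, Nos3-/- day 11 replicates 1, 2, 3, 5 and 6, control day 11 replicates 2, 4, 5, 8 and 9, Nos3-/- day 0 replicate 2 and control day 0 replicates 5, 7 and 10 (adjusted p from 0.0501 to 0.0984). The day 0 call was lost without Nos3-/- day 0 replicate 5 (adjusted p = 0.0759).

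Most of the other differences at day 0 were small and rested on few arrays. Without Nos3-/- day 0 replicate 5 the genotypes differed in 1471 genes, against 3029 with it, and the ligands in 1 higher and 1 lower, against 4 higher and 3 lower. Cxcl16 had levels of 7.74, 7.88 and 8.63 in Nos3-/- iPSCs, against 8.21, 8.57 and 8.85 in control iPSCs, a difference of -0.48 (SE 0.14, adjusted p = 0.0173). Il11 had levels of 6.12, 6.67 and 7.28 in Nos3-/- iPSCs, against 6.53, 7.38 and 8.02 in control iPSCs, a difference of -0.69 (SE 0.19, adjusted p = 0.0145). Without Nos3-/- day 0 replicate 5 the adjusted p was 0.0644 for Cxcl16 and 0.0651 for Il11, and without replicate 6 it was 0.0534 for Cxcl16 and 0.0520 for Il11. Il23a had levels of 6.84, 7.60 and 8.32 in Nos3-/- iPSCs, against 6.39, 6.75 and 8.05 in control iPSCs, a difference of 0.65 (SE 0.22, adjusted p = 0.0421). Il12a, near the floor of the array, had levels of 4.51, 4.65 and 4.87 in Nos3-/- iPSCs, against 4.28, 4.46 and 4.57 in control iPSCs, a difference of 0.21 (SE 0.07, adjusted p = 0.0352). Groups overlapped for all 4 of these genes. The Il23a call was lost without Nos3-/- day 0 replicate 4, 5 or 6 or control day 0 replicate 2, 3, 4, 6, 7 or 8 (adjusted p from 0.0550 to 0.149). The Il12a call was lost without Nos3-/- day 0 replicate 2, 4 or 5 or control day 0 replicate 2, 7 or 9 (adjusted p from 0.0505 to 0.118). At day 11 none of the 4 passed. Il6 differed by -0.71 at day 0 (adjusted p = 0.123) and by 0.30 at day 11 (adjusted p = 0.682), and none of the 9 monocyte-attracting or 5 neutrophil-attracting chemokines passed between genotypes on either day.

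**Figure D5:**
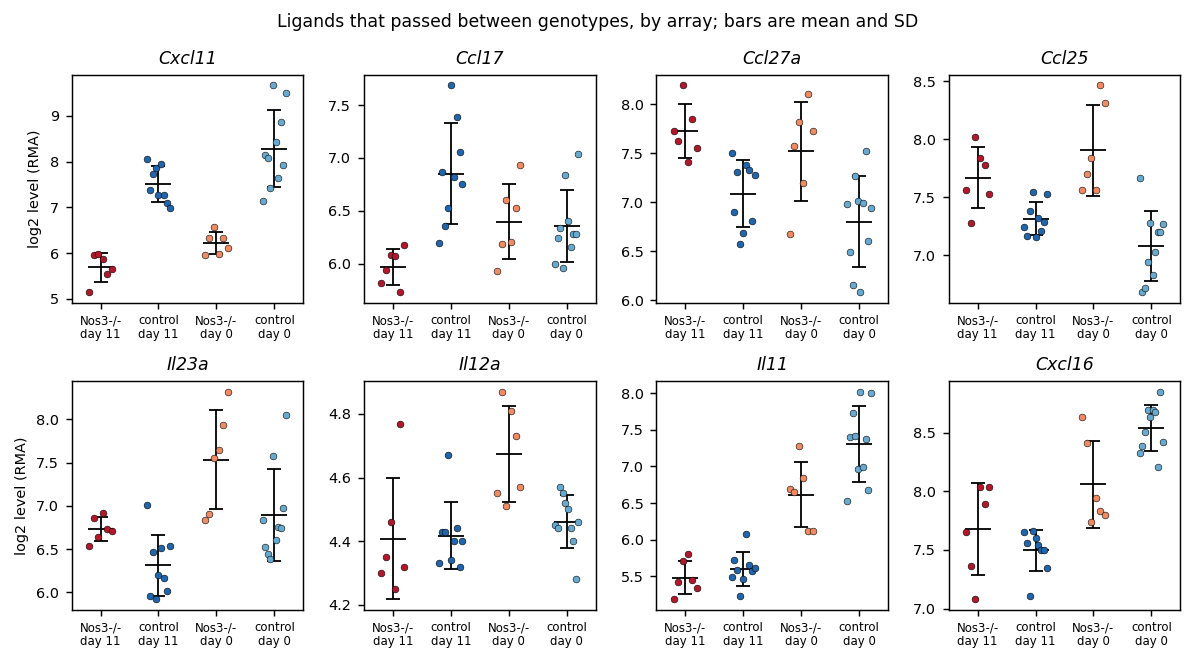
Log2 level (vertical axis) of the 8 ligands that differed between genotypes, on each array (points), with the mean and SD of each group. Nos3-/- stands left of control on each day, and Cxcl11 is the only gene whose genotypes are apart on both days, with Nos3-/- highest at 5.97 at day 11 and 6.58 at day 0.

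Markers of other states differed between the genotypes too. At day 11, 5.29% of all genes were lower and 4.41% higher in Nos3-/- cells. In Nos3-/- embryoid bodies 10 of 23 fibroblast markers were lower and 1 was higher, and 10 of 13 visceral endoderm markers were lower. In the same group 6 of 15 pluripotency markers and 4 of 12 keratinocyte and epithelial markers were higher than in control embryoid bodies. At day 0, 7.47% of all genes were lower and 9.17% higher in Nos3-/- cells. In Nos3-/- iPSCs 9 of 23 fibroblast, 3 of 13 visceral endoderm and 2 of 12 keratinocyte and epithelial markers were lower. Of the 15 pluripotency markers 3 were higher there. Nos3-/- replicate 3 went the other way in pluripotency markers, with a list mean of 9.06 at day 11 and 9.49 at day 0, below the lowest control array, at 9.56 at day 11 and 10.09 at day 0. None of the 18 macrophage markers passed between genotypes on either day. The part of these in the ligand differences was not tested.

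Whether the change between days itself differed with genotype was tested as the Nos3-/- change minus the control change. None of the 59 ligands passed (limma, adjusted p under 0.05), where 1.24% of all genes did. An unadjusted p under 0.05 was reached by 9, and the share of all genes that reached it was not counted, so this count cannot be judged. The lowest adjusted p were those of Ccl17 (0.0718, a difference of -0.93) and Cxcl16 (0.0865, a difference of 0.66). So the 8 ligands that passed in control cells alone and the 5 that passed in Nos3-/- cells alone are not shown to differ between genotypes. The Il6 changes, -4.80 in Nos3-/- and -5.81 in control cells, differed by 1.01 (unadjusted p = 0.0336), with both day 11 levels near the floor of the array.

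The receptors for these ligands and the genes around them were examined as lists. The counts between days stand beside 18.1% of all genes that fell and 13.0% that rose in Nos3-/- cells, and 18.2% that fell and 16.0% that rose in control cells. Of 21 chemokine receptors 3 fell in Nos3-/- cells, a share no higher than that of all genes, and 6 fell and 1 rose in control cells. Ccr1, which binds Ccl3, Ccl6 and Ccl9, fell by 2.50 in Nos3-/- and by 2.29 in control cells. Cxcr4, the receptor of Cxcl12, fell by 2.21 in control cells, changed by -0.83 in Nos3-/- cells without passing, and was lower in Nos3-/- than in control iPSCs, a difference of -1.79 (adjusted p = 0.0149). Ackr3, a scavenging receptor of Cxcl11 and Cxcl12, was lower in Nos3-/- than in control embryoid bodies, a difference of -1.09 (adjusted p = 0.000534). Cxcr2, the neutrophil receptor, was higher in Nos3-/- embryoid bodies, by 0.29 (adjusted p = 0.0209), with levels of 4.12 to 4.67 in Nos3-/- and 3.84 to 4.23 in control ones, near the floor of the array. Of 36 interleukin receptor chains 12 fell in Nos3-/- cells, and 19 fell and 2 rose in control cells. Osmr, the oncostatin M receptor chain that pairs with gp130, fell by 3.04 in Nos3-/- and by 4.60 in control cells, and Il1rap, the shared chain of interleukin-1 receptors, by 1.31 in Nos3-/- and by 2.05 in control cells. Lifr, the receptor chain for leukemia inhibitory factor, rose by 1.39 in control cells. Of 20 other cytokine ligands 7 fell and 1 rose in Nos3-/- cells, and 12 fell and 1 rose in control cells. Tslp, a cytokine of epithelia and fibroblasts, fell by 5.38 in Nos3-/- and by 5.68 in control cells, and Kitl, the stem cell factor, rose by 1.22 in Nos3-/- and by 1.40 in control cells. Of 27 NF-kappaB pathway and target genes 14 fell and 2 rose in Nos3-/- cells, and 13 fell and 2 rose in control cells. Ptgs2, the inducible cyclooxygenase, fell by 2.65 in Nos3-/- and by 3.08 in control cells. Of 27 interferon response genes 14 fell in each genotype, and 1 rose in Nos3-/- cells.

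The other 24 ligands passed in none of the 5 comparisons, and 19 of them had a mean below the lower tertile. They include Il2, Il4, Il5, Il9, Il13, Il17a and Il21, the products of activated T cells, and Il10 and Il12b, whose values stayed under 6 on all arrays, the highest being 5.96 for Il9. Among the 24, the values of Cxcl10 spanned 3.84 over the 31 arrays, those of Cxcl12 3.29, those of Il7 3.11 and those of Il17d 1.87, and those of every other gene at most 1.01. Il7, the survival factor of lymphocyte precursors, had levels of 4.99, 5.19 and 8.10 in Nos3-/- embryoid bodies, against 5.67, 6.24 and 6.59 in Nos3-/- iPSCs, and the single high value was that of replicate 3. That array was also the highest of its group for many other ligands. Among them were Ccl2, Ccl7, Cxcl5, Il33, Cxcl10, Ccl8, Ccl9, Ccl20, Ccl25 and Cxcl1, and it was the lowest of its group for Cxcl12 and Cxcl16.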

How the data were processed

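RNA was labelled as biotinylated cRNA and hybridised to Affymetrix mouse arrays, per the labels. The deposited values are log2 expression made with RMA, a method that corrects background, sets arrays to 1 distribution and summarises probe sets, per the submitters' processing notes. The values run from 2.32 to 15.01 with array medians of 6.13 to 6.23. RMA compresses low levels, so changes near the floor are understated, and the number of arrays limits the precision. No slide or scan batch is given in the sources used here. Of 45101 probe sets, 34958 had 1 gene symbol in the platform annotation and were used, 932 had several and 9211 none. All 59 ligands matched a RefSeq gene.

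All 31 arrays entered 1 linear model in limma 3.58.1 (R 4.3.3), with 1 mean per genotype and day (27 residual degrees of freedom) and no further normalization. The 5 comparisons were each genotype difference by day, each day difference by genotype, and the genotype difference in the change between days. P-values were moderated with eBayes and adjusted by Benjamini-Hochberg over 18194 genes, and a gene passed at an adjusted p under 0.05. On simulated data with 200 changed genes, those changed 2-fold were called in 89.6% of cases for day 0 genotype, 85.1% for day 11 genotype, 97.0% for control days and 89.6% for Nos3-/- days. For those changed 1.5-fold it was 79.1%, 73.1%, 80.6% and 59.7%, in the same order, and unchanged genes made up 3.49% to 6.81% of calls. The changed genes were drawn from all genes, with independent normal noise and the rest unchanged. These rates therefore need not hold for ligands with a wide spread or for outlying arrays. Alternatives were the normalization, the probe set rule, a filter on low levels, array weights, eBayes settings, the arrays fitted, a replicate block and leaving out each array. The ligands, role groups and gene lists were chosen with earlier results of these data known. All passing ligands are named, with the others by range and up to 3 per role group. From other lists, Nos3 and up to 2 passing genes at each end per comparison are named, and Pou5f1 and the receptor chains beside a ligand's result were chosen after their values were seen.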

Additional observations from a re-analysis of the deposited data

Results flagged for a closer look

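In groups of 6, 9 or 10 arrays, single arrays stood apart from the rest of their group (Dixon's criterion at the 95% level) in 12 of the 140 groups formed by the 35 passing ligands and 4 groups, where chance singles out about 1 in 20. Nos3-/- day 11 replicate 3 did so for Cxcl5 at 7.85, Il33 at 8.63 and Il34 at 5.68, each above its group. In the same group replicate 1 was low for Ccl11 at 3.9, replicate 5 was low for Ccl4 at 6.58 and replicate 6 was high for Cxcl17 at 6.67. Among control day 11 arrays, replicate 1 was high for Ccl5 at 7.53, replicate 4 for Il12a at 4.67, replicate 5 for Il1b at 5.34, and replicate 6 for Il18 at 7.72 and Il24 at 5.68. Among control day 0 arrays, replicate 9 was high for Ccl3 at 7.85.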

How the results depend on the processing

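Of the 63 calls on ligands, 49 held on leaving out each array in turn, 44 held under every alternative that gave them a value and none reversed. For 10 of the 44, 1 alternative gave no value: the filter on low levels removes the genes of 17 calls, and leaving out probe sets that can cross-hybridise removes Ccl27a and its 2 calls. The 44 were 2 of 7 at day 0 and 2 of 3 at day 11 between genotypes, 18 of 25 between days in Nos3-/- cells and 22 of 28 in control cells. Leaving out the arrays one at a time gave 1471 to 4142 genes between genotypes at day 0 (1 to 5 ligands higher, 1 to 5 lower) and 1345 to 2295 at day 11 (0 to 1 higher, 2 to 3 lower). Between days it gave 4391 to 6092 genes in Nos3-/- cells (21 to 27 ligands lower) and 5645 to 6641 in control cells (1 higher, 25 to 29 lower), and for the genotype difference in the change 88 to 745 genes (0 to 1 ligand in each direction). The 1471 and 88 genes came without Nos3-/- day 0 replicate 5, and the 4142 and 745 without replicate 3 of that group. Array weights gave 3939 genes at day 11 between genotypes, against 1764, with 2 ligands higher and 6 lower, 1590 for the difference in the change, against 225, with 1 ligand higher and 2 lower, and 2 ligands higher between days in control cells. Fitting only the groups compared gave 3679 genes between days in Nos3-/- cells, against 5658, and 2 ligands higher at day 11. Leaving out Nos3-/- replicate 3 of both days, an alternative chosen after seeing the data, gave 4671 genes at day 0 between genotypes, against 3029, 1315 genes for the difference in the change, with 1 ligand in each direction, and 0 ligands higher at day 11. Without probe sets that can cross-hybridise 0 ligands were higher at day 11, since Ccl27a has no other probe set. Averaging the probe sets of each gene gave 2 higher between days in control cells, and quantile normalization gave 1 higher in Nos3-/- cells. Apart from the loss of Ccl27a with its probe set, the cause of these shifts was not tested. Besides leaving out arrays, other settings ended 15 ligand calls, several of them under more than 1 setting. Quantile normalization ended 10, those of Il12a at day 0 (adjusted p = 0.0647), of Il17b (0.0687), Il23a (0.0510), Il34 (0.0883) and Cxcl17 (0.358) between days in control cells, and of Il1b (0.0638), Ccl5 (0.0531), Il12a (0.0963), Il15 (0.0897) and Il16 (0.202) between days in Nos3-/- cells. Fitting only the groups compared ended 8, those of Il11 (0.0588) and Il23a (0.105) at day 0, of Cxcl17 (0.0635) between days in control cells, and of Ccl5 (0.108), Il12a (0.0832), Il16 (0.0639), Il17b (0.0581) and Il33 (0.0590) between days in Nos3-/- cells. Centring each array on its median ended 4, those of Cxcl17 (0.179) in control cells and of Il15 (0.0632), Il16 (0.139) and Il17b (0.0502) in Nos3-/- cells. Leaving out Nos3-/- replicate 3 of both days ended 3, those of Ccl27a at day 11 (0.0966), Cxcl17 (0.0501) in control cells and Il15 (0.0530) in Nos3-/- cells. Array weights ended those of Ccl5 (0.0712) and Il15 (0.115) in Nos3-/- cells, averaging probe sets that of Il16 (0.127) and eBayes with trend that of Cxcl17 (0.0533). Same-numbered arrays were not treated as pairs in the main fit. At most 3 pairs of any 2 groups had deviations correlated above 0.1. This was 3 of 6 between the genotypes at day 0 and 3 of 9 between the days in control cells. Correlations ran from -0.274 to 0.352, which does not settle whether any arrays were paired. A replicate block gave 0 ligands higher at day 11 and 1 lower for the difference in the change, and ended 6 calls, those of Il12a at day 0 (0.127), Ccl27a at day 11 (0.0780), Cxcl17 (0.0544) and Il23a (0.0542) between days in control cells, and Ccl5 (0.0638) and Il15 (0.0600) between days in Nos3-/- cells.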
